A study of Homo sapiens with 12 samples.

Results

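The transcripts of 10 cytokine genes that B-cell lymphomas can make, of 58302 genes in the deposited table, were followed through a drug treatment: CXCL13, CCL3, CCL4, CCL17, CCL22, LTA, LTB, TNF, IL10 and IL6. They were taken from the table by gene name. The list was chosen by family and with results of these libraries in view, in particular the large CXCL13 count difference between treated and untreated OCI-LY3 cells. That difference is therefore given as a description without a p-value, and counts of members called in OCI-LY3 say where they include it. The 4 groups were selinexor-treated OCI-LY3, untreated OCI-LY3, selinexor-treated SU-DHL6 and untreated SU-DHL6, with 3 RNA-seq libraries each. Selinexor is an oral drug that binds XPO1, the exportin that carries many proteins and some RNAs out of the nucleus. OCI-LY3 and SU-DHL6 are established human lines, labelled as the activated B-cell (ABC) type and the germinal centre B-cell (GCB) type of diffuse large B-cell lymphoma and both as genotype WT. Each type is represented by 1 line, so type and line cannot be told apart. The labels name 300 and 100 nM selinexor and 24 and 48 h, without saying which library had which, so a difference between the lines can also be one of dose or time. The libraries are called biological triplicates, but nothing says how cultures were separated, and p-values measure the spread between these libraries.

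Cytokines are small secreted or surface-bound proteins through which immune cells direct each other. CXCL13 attracts B cells into lymphoid follicles through the receptor CXCR5. CCL3 and CCL4 attract monocytes and T cells, and CCL17 and CCL22 share the receptor CCR4, which is found on regulatory and helper T cells. LTA and LTB encode lymphotoxin chains: LTA alone forms a soluble trimer that binds the TNF receptors, and together with membrane-anchored LTB it forms a surface complex that signals through LTBR. IL-10 and IL-6 signal through STAT3, and ABC lymphoma lines with active NF-kB are known for making both. Several of these genes, among them TNF, LTB, CCL22 and IL6, are classical NF-kB targets.

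The upstream sequences below are those of the genes with the widest spans between groups and of the NF-kB-type elements near the members' start sites. They come from the RefSeq promoter table on GRCh38.p14, which held 8 of the 10 members (15 start sites, none for CCL4 or CCL17). CXCL13 is on chromosome 4 (77511753 to 77611834, plus strand) and has 2 annotated starts, far apart. The 250 bases before the first are chr4:77511503-77511752 and those before the second are chr4:77605570-77605819. For CCL22 (chromosome 16, 57358772 to 57366190, plus strand), 239 bases upstream are given, chr16:57358533-57358771, with a match to the kappaB motif in capitals.
CXCL13 first start: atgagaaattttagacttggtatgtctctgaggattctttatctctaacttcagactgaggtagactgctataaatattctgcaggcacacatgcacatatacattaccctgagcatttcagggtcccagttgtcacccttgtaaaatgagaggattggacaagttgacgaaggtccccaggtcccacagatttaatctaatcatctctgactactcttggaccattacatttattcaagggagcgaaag
CXCL13 second start: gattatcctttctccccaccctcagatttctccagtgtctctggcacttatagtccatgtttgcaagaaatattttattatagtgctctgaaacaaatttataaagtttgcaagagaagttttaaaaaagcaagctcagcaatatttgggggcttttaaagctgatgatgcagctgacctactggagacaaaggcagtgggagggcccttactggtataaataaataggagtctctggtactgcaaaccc
CCL22: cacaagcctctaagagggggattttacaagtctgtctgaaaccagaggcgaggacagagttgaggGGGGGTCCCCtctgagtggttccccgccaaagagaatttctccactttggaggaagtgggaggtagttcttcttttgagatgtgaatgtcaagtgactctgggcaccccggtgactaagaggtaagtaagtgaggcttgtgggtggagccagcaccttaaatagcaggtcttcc
Windows of 30 bases hold the other kappaB matches, again in capitals. Every sequence is written along the strand of its gene, and in LTB, a minus-strand gene, the motif reads on the opposite strand. They lie at chr6:31572176-31572205 for the second LTA start, chr6:31582492-31582521 for LTB and chr7:22727117-22727146 for IL6. The LTA window lies after the first LTA start (31572099) and within annotated exon. Of the 250 bases before the second LTA start, 235 are exon.
LTA: ctaagccctgGGGGCTTCCCcgggccccag
LTB: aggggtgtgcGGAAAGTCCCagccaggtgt
IL6: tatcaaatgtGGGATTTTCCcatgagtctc
The kappaB motif was searched on both strands in the 250 bases before every start. It was present in 5 of the members' 15 start windows, against 5.21% of all 35116 promoters in the table. Those 5 hold 4 distinct sites, of CCL22, LTA, LTB and IL6, since both LTB starts share a site. The AP-1 motif TGANTCA was found for IL10 alone, and the STAT motif TTCNNNGAA for LTA and LTB, and each occurs in 6.57% of all promoters. None of the 3 motifs occurred before either CXCL13 start, nor before the CCL3 or TNF starts. A match is a description of letters, not a bound site.

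CPM below are counts per 1000000 of the library total after scaling by TMM factors, and a gene is said to have risen or fallen where the edgeR adjusted p was under 0.05. Library totals were 14210200 to 16405842 counts. Between replicates, Pearson's r of log2 values across genes, which are not independent, was 0.981 to 0.986. The first untreated SU-DHL6 library and the third treated OCI-LY3 library stood apart from their groups on the fourth principal component (1.21% of the variance, scores -41.5 and -25). As a check on the drug, XPO1 rose in both lines, by 0.99 ± 0.13 on the log2 scale in OCI-LY3 and 1.77 ± 0.13 in SU-DHL6 (SE). All 8 ABC genes listed as markers were higher, and all 8 GCB genes lower, in untreated OCI-LY3 than in untreated SU-DHL6. The B-cell genes MS4A1, CD79B, CD37, BLK and CD22 were transcribed in both lines. Summed levels of 8 T-cell markers were 4.29 to 7.22 CPM in treated against 2.02 to 2.79 CPM in untreated OCI-LY3. In SU-DHL6 they were 18.8 to 22.4 CPM in treated against 35.4 to 37.1 CPM in untreated libraries. Of the 4 tested T-cell markers, CD3E and CD8A rose in OCI-LY3. In SU-DHL6, CD3E, CD247 and TRAC fell and CD8A rose. The CD8A and CD3E calls there rest on few reads. CD8A had 0.256 CPM in treated and 0.0207 CPM in untreated SU-DHL6, and CD3E 0.0715 and 0.475 CPM. Most of the SU-DHL6 sum was TRAC, at 19.5 CPM in treated and 34.1 CPM in untreated libraries. CD3G and CD2 were at 0 in all libraries, and CD3D and CD247 in all OCI-LY3 libraries. Of 9 myeloid markers, CSF1R, ITGAM and CD68 passed 1 CPM in any library, and the 9 summed to 26.2 to 30.1 CPM in treated against 32.5 to 35.3 CPM in untreated OCI-LY3, and 2.97 to 3.6 CPM in treated against 2.51 to 3.83 CPM in untreated SU-DHL6. In OCI-LY3, ITGAM fell by 0.91 ± 0.17 on the log2 scale, whereas CSF1R rose by 2.23 ± 0.38 and CD68 by 1.39 ± 0.22. LYZ, FCGR3A, S100A8 and S100A9 were at 0 in all libraries. The part of these marker levels in the results was not tested.

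Of the 10 cytokine genes, 9 had enough reads to be tested, and CCL17 did not. In OCI-LY3, CXCL13 is left out of the count because the list was chosen with its change known, and 6 of the other 8 were called between treated and untreated libraries (edgeR quasi-likelihood test, adjusted p under 0.05), among 44.4% of all 16474 genes tested. IL10 and LTB were higher after selinexor, as were 22.2% of all genes, and CCL3, CCL22, LTA and TNF were lower, as were 22.2%. In SU-DHL6, where 43.2% of all genes were called, 5 members were called and all were lower: CCL3, CCL4, LTA, LTB and TNF (22.8% of all genes were lower and 20.4% higher). With so many genes called in each line, the number of members called is not in itself a result about them. What follows gives the members by role.

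**Figure D1:**
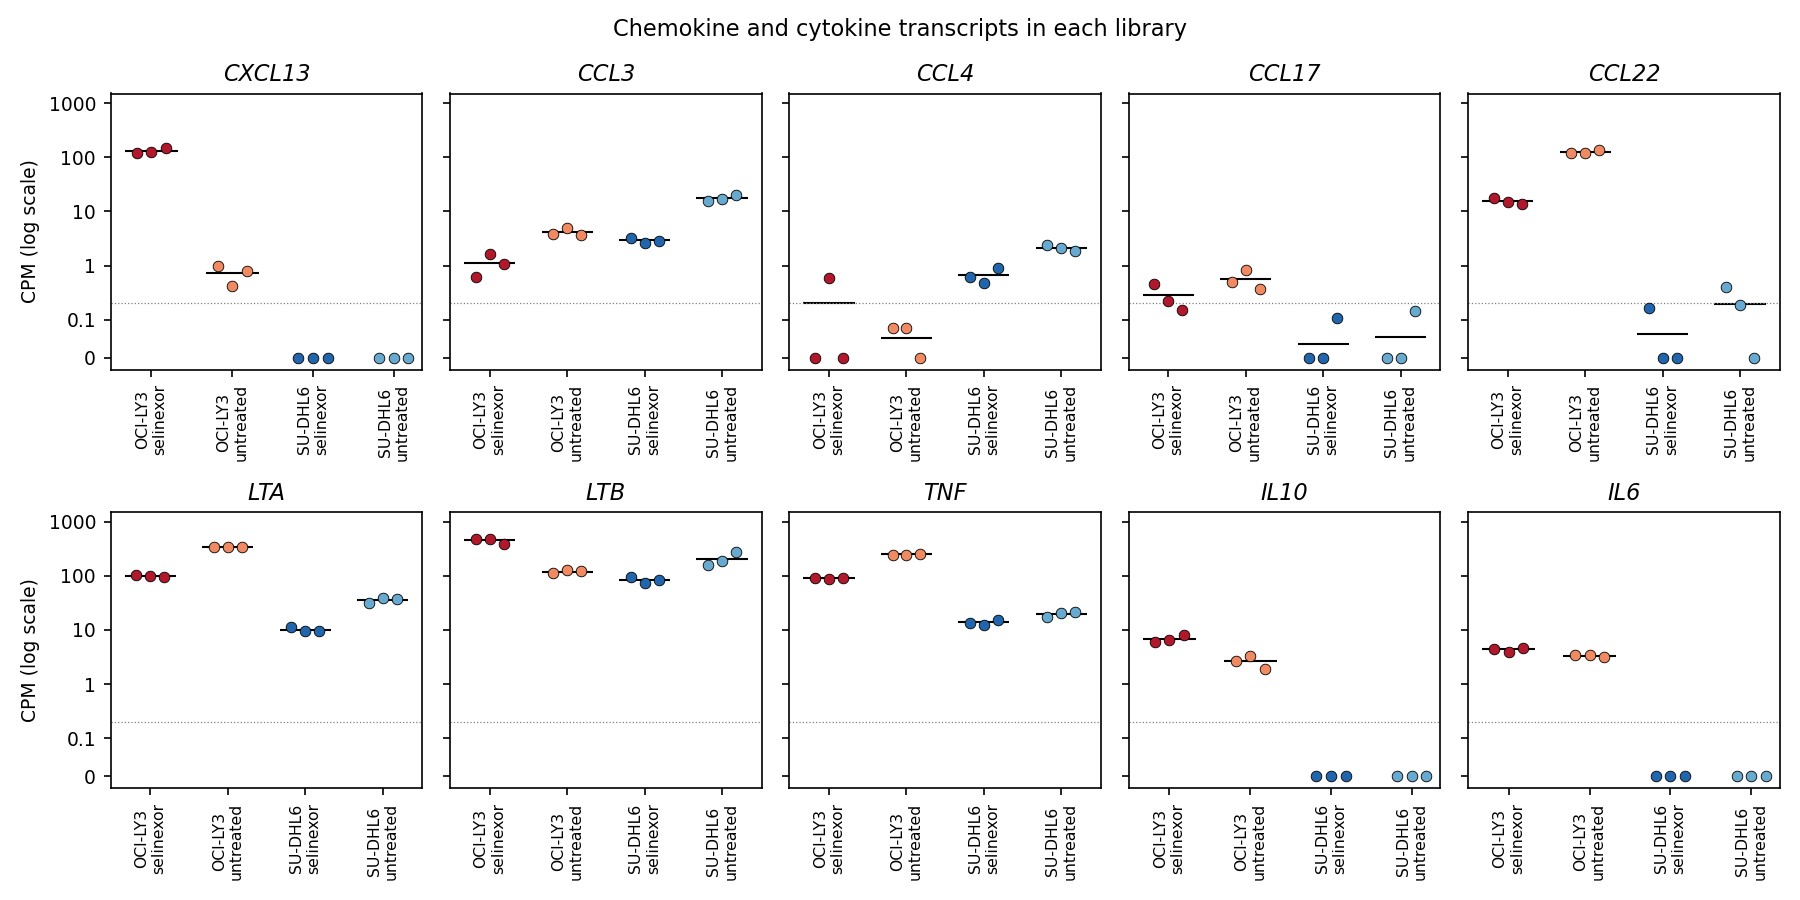
Level of each of the 10 genes in every library, as CPM on a logarithmic axis, with values of 0 drawn at the lowest tick, which is labelled 0. Points are libraries, black lines are group means of 3, and the dotted line marks the level of 3 counts. CXCL13, CCL22, IL10 and IL6 lie above 1 CPM only in OCI-LY3 libraries, and LTB is the 1 gene whose treated libraries lie above the untreated ones in OCI-LY3 and below them in SU-DHL6.

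CXCL13 had the widest change of all members. Treated OCI-LY3 libraries held 1557, 1673 and 1969 counts, against 14, 6 and 11 counts in untreated OCI-LY3. Treated libraries thus lay far above every untreated one, at 132 ± 14.8 CPM against 0.735 ± 0.284 CPM (SD, n = 3 each), a log2 fold change of 7.47 ± 0.23 (SE). Without any 1 library or in any other setting it lay between 7.19 and 7.73. In SU-DHL6 no library, treated or untreated, had a single CXCL13 read, and 3 counts correspond to about 0.202 CPM in the untreated SU-DHL6 libraries. In bulk RNA, more cells that express a gene and more RNA per cell cannot be told apart. The stromal and follicular dendritic list, whose cells are a usual source of CXCL13 in tissue, had 2 of its 8 genes above 1 CPM in any library (COL1A1 and PDGFRB), with a sum of 28.4 to 38.9 CPM in treated and 25.1 to 26.2 CPM in untreated OCI-LY3. COL1A1 rose by 0.53 ± 0.18, a call lost in 7 of 21 settings, and PDGFRB fell by 2.77 ± 0.43. Of that list COL3A1, PDPN and FDCSP, the last made by follicular dendritic cells, were at 0 in all OCI-LY3 libraries. The remaining listed genes, COL1A2, CR1 and CLU, had reads in OCI-LY3 but stayed under 1 CPM in every library. Whether such cells were present was not tested.

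By profile over the 4 group means (centred log2 CPM), the gene nearest to CXCL13 was AL133467.1, a long intergenic RNA, at a root mean square difference of 1.25 log2 units. It had 203 CPM in treated and 9.57 CPM in untreated OCI-LY3, and under 0.3 CPM in either SU-DHL6 group. FXYD6, a regulator of the sodium pump, followed at 1.3 and C15orf48, a mitochondrial protein gene, at 1.32. The other tested members had neighbours within 0.2 log2 units, for example PITPNC1 for CCL3 (0.109), RXRA for CCL22 (0.152), PHACTR2 for LTA (0.063), RASIP1 for LTB (0.188) and PIP4P2 for TNF (0.11). AL022318.4 was nearest to CCL4 (0.109), KCNQ3 to IL10 (0.0572) and GATA4 to IL6 (0.0267), where most of the profile is absence from SU-DHL6. These distances rest on 4 group means and describe shape alone.

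CCL22, the chemokine made by antigen-presenting cells and B cells for CCR4-bearing T cells, fell 8.23-fold in OCI-LY3. Treated libraries held 223, 197 and 180 counts, against 1750, 1729 and 1813 in untreated ones. The groups were 15.2 ± 1.9 and 126 ± 6.67 CPM (SD, n = 3 each) and far apart, with a log2 fold change of -3.04 ± 0.25 (SE, edgeR adjusted p = 7.89e-07). SU-DHL6 was near the limit of detection, with 3, 0 and 0 counts in treated and 6, 3 and 0 in untreated libraries, so no fold is given there. CCL17, which lies 38576 bases from CCL22 on chromosome 16 and shares its receptor, had 6, 3 and 2 counts in treated and 7, 12 and 5 in untreated OCI-LY3. These libraries overlap, and in SU-DHL6 no library exceeded 2 counts. CCL17 therefore stayed untested.

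CCL3 and CCL4, known as macrophage inflammatory proteins, sit 13420 bases apart on chromosome 17, and both were lower after selinexor in SU-DHL6. In SU-DHL6, CCL3 had 59, 49 and 54 counts in treated libraries, against 232, 273 and 279 in untreated ones. That is 2.93 ± 0.31 against 17.6 ± 2.28 CPM (SD, n = 3 each), a fall of 5.99-fold (log2 -2.58 ± 0.23, adjusted p = 1.06e-06, edgeR). OCI-LY3 carried less of it, 8, 22 and 14 counts in treated against 55, 71 and 50 in untreated libraries, and it fell 3.72-fold (log2 -1.90 ± 0.28, adjusted p = 8.11e-05, edgeR). Treated and untreated libraries did not overlap in either line. The difference between these falls (SU-DHL6 minus OCI-LY3) was -0.69 ± 0.37, which missed the threshold (edgeR adjusted p = 0.163), but reached it without the first treated OCI-LY3 library (-0.97, adjusted p = 0.0416).

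CCL4 in SU-DHL6 had 11, 9 and 17 counts in treated and 35, 34 and 26 in untreated libraries. The groups did not overlap, and it fell 3.15-fold (log2 -1.65 ± 0.54, edgeR adjusted p = 0.0239). That call rests on few reads. It was lost when any 1 of the first or second treated or untreated SU-DHL6 libraries was left out (adjusted p 0.0563 to 0.0922) and with scaling by library totals (0.0508). In OCI-LY3 a single treated library held 8 CCL4 counts and the other two none, while untreated libraries had 1, 1 and 0.

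Each of these chemokines has a near-identical copy in the human genome, and the deposited counts keep them apart. CCL3 and CCL3L1 transcripts share 96.1% of 778 aligned bases, and CCL4 and CCL4L2 share 96.5% of 805, so how reads were split between them is uncertain. CCL3L1 had 70, 76 and 53 counts in treated SU-DHL6, against 180, 261 and 238 in untreated SU-DHL6. It fell by 2.07 ± 0.23 on the log2 scale (edgeR adjusted p = 4.71e-05). CCL4L2 had 28, 38 and 38 counts in treated, against 72, 101 and 85 in untreated SU-DHL6, and fell by 1.61 ± 0.25 (edgeR adjusted p = 0.000539). Both copies moved the way of their partners in SU-DHL6. In OCI-LY3 all 6 libraries had 0 counts of either copy. The copies made up a large share of the summed reads in SU-DHL6: CCL3L1 49.5 to 60.8% in treated and 43.7 to 48.9% in untreated libraries, and CCL4L2 69.1 to 80.9% in treated and 67.3 to 76.6% in untreated ones. Summing each pair left the count of members called (CXCL13 included) at 7 in OCI-LY3 and 5 in SU-DHL6. An antisense RNA that overlaps CCL3 exons had 0 counts in every library.

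**Figure D2:**
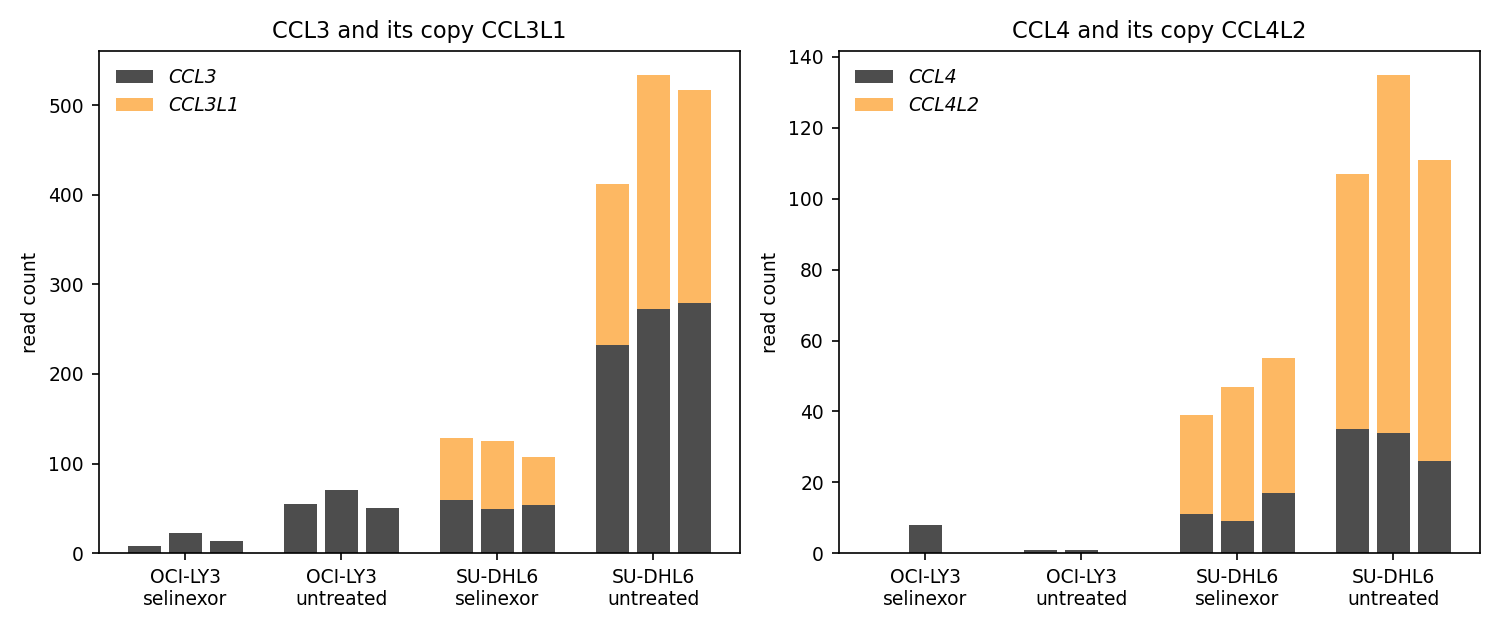
Read counts of CCL3 with its copy CCL3L1 (left) and of CCL4 with its copy CCL4L2 (right), stacked, 1 bar per library, with replicates 1 to 3 from left to right in each group. The copies carry reads only in SU-DHL6, where the summed bars are 107 to 129 counts in treated against 412 to 534 in untreated libraries for CCL3, and 39 to 55 against 107 to 135 for CCL4.

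LTA, TNF and LTB form 1 cluster of 10469 bases in the MHC region of chromosome 6, with 1242 bases between LTA and TNF and 2188 between TNF and LTB. In SU-DHL6 all 3 fell, and in OCI-LY3 LTA and TNF fell while LTB rose. LTA, the soluble lymphotoxin chain, fell in both lines. Its levels were 11.4, 9.62 and 9.41 CPM in treated against 30.9, 38.2 and 36.9 CPM in untreated SU-DHL6. In OCI-LY3 they were 102, 98.7 and 95 CPM in treated against 335, 345 and 336 CPM in untreated libraries. The falls were 3.48-fold in SU-DHL6 (log2 -1.80 ± 0.11, adjusted p = 1.83e-08) and 3.44-fold in OCI-LY3 (log2 -1.78 ± 0.10, adjusted p = 1.32e-08, both edgeR). No library of a treated group reached an untreated one. The difference of the falls was -0.02 ± 0.14 (edgeR adjusted p = 0.967), its sign turned in 7 of 20 settings, and scaling by library totals gave 0.36 (adjusted p = 0.038).

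TNF, the inflammatory cytokine that lies between the lymphotoxin genes, was also lower in both lines. Treated SU-DHL6 had 13.7, 12.5 and 15.3 CPM, against 17, 20.9 and 21.5 CPM in untreated SU-DHL6, without overlap. The fall there was 1.43-fold (log2 -0.52 ± 0.11, edgeR adjusted p = 0.00149), and with scaling by library totals it was -0.25 and no longer called (adjusted p = 0.0666). On the authors' FPKM scale the SU-DHL6 libraries overlapped, at 9.51, 8.91 and 11.2 in treated and 10.5, 12.2 and 12.5 in untreated cells. In OCI-LY3, treated libraries had 92, 88.7 and 91.5 CPM, against 245, 244 and 250 CPM in untreated ones, groups well apart. TNF fell 2.72-fold there (log2 -1.44 ± 0.10, edgeR adjusted p = 9.83e-08). The responses differed by 0.92 ± 0.15 (SU-DHL6 minus OCI-LY3, edgeR adjusted p = 0.000271), the smaller fall being in SU-DHL6.

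LTB, the membrane anchor of the lymphotoxin complex, went in opposite directions in the lines. It fell 2.45-fold in SU-DHL6, with 95.8, 74.7 and 83.4 CPM in treated and 159, 185 and 279 CPM in untreated libraries. It rose 3.77-fold in OCI-LY3, with 477, 480 and 387 CPM in treated and 110, 126 and 120 CPM in untreated libraries. Neither line's groups overlapped, and the untreated SU-DHL6 libraries varied most among themselves. The log2 fold changes were -1.29 ± 0.18 in SU-DHL6 (adjusted p = 7.15e-05) and 1.92 ± 0.18 in OCI-LY3 (adjusted p = 2.23e-06, both edgeR). Their difference was -3.21 ± 0.25 (edgeR adjusted p = 1.27e-06), with a range of -3.38 to -2.82 over the alternatives. Of all genes, 36.9% passed this test of a difference, 17% with a positive and 19.9% with a negative one. Among members with a measurable change in both lines (CCL3, LTA, LTB and TNF), LTB and TNF passed it.

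**Figure D3:**
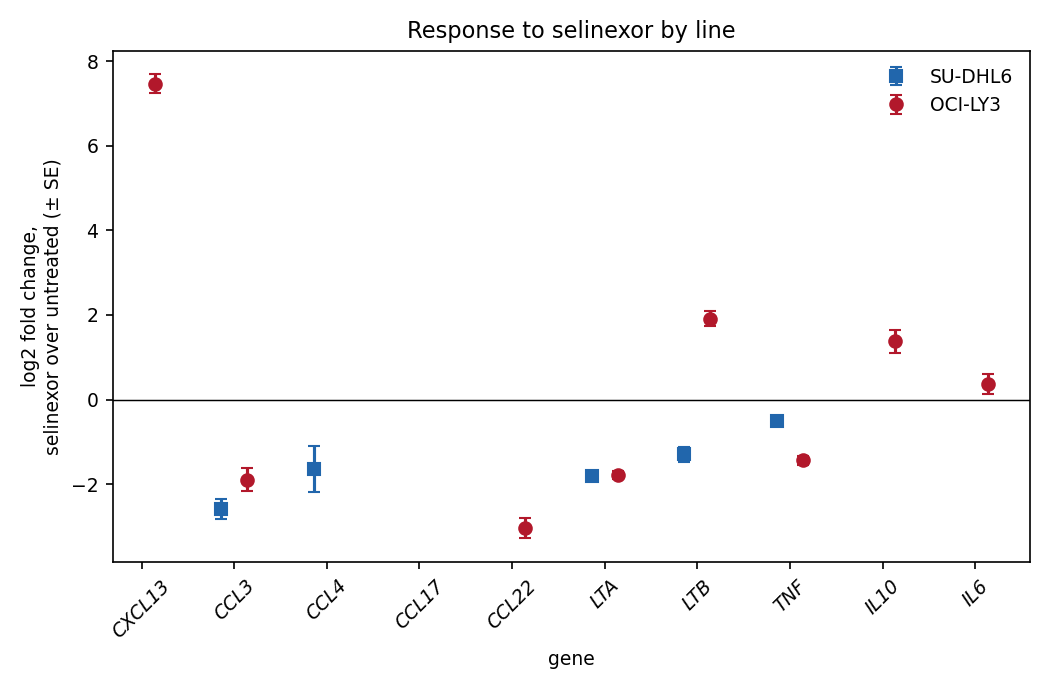
Log2 fold change of selinexor-treated over untreated libraries for each member in SU-DHL6 (squares) and OCI-LY3 (circles), with the standard error from the edgeR fit. A point is drawn for the 9 tested genes where at least 1 group of the line averaged over 3 counts per library; CCL17 was too low to test. LTB lies below 0 in SU-DHL6 and above 0 in OCI-LY3, the LTA points nearly coincide, and CXCL13 stands at 7.47 in OCI-LY3.

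LTA, LTB and TNF were also measured in FPKM, which divides by a gene length, so their levels can be compared on the authors' scale. Those lengths are in doubt: with library totals as depth, counts and FPKM imply lengths above the gene spans of LTB, CCL3 and CCL4. These spans are 1998, 1914 and 2032 bases. Levels of different genes are therefore given on that scale alone, and their true order was not settled. A fixed length cancels where the same ratio is compared between groups. In treated OCI-LY3, LTB led at 126 ± 14 FPKM, with TNF at 47.5 ± 0.81 and LTA at 40.1 ± 0.94 FPKM, whereas untreated OCI-LY3 had 36.1 ± 2.17 of LTB, 140 ± 1.97 of TNF and 149 ± 1.85 FPKM of LTA (SD, n = 3 each). The ratio of LTB to LTA was 3.23, 3.36 and 2.81 in treated OCI-LY3 libraries, against 0.227, 0.253 and 0.246 in untreated ones. On the FPKM scale, the order of the chains was thus turned round in every treated OCI-LY3 library. In SU-DHL6, LTB had the higher FPKM in all 6 libraries. Its ratios to LTA were 5.8, 5.36 and 6.12 in treated and 3.54, 3.34 and 5.22 in untreated cells, which did not overlap. The ratio of TNF to LTA was above 1 in all treated libraries of both lines (1.16 to 1.24 in OCI-LY3, 1.54 to 2.09 in SU-DHL6) and below 1 in all untreated ones (0.91 to 0.957 in OCI-LY3, 0.704 to 0.751 in SU-DHL6).

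**Figure D4:**
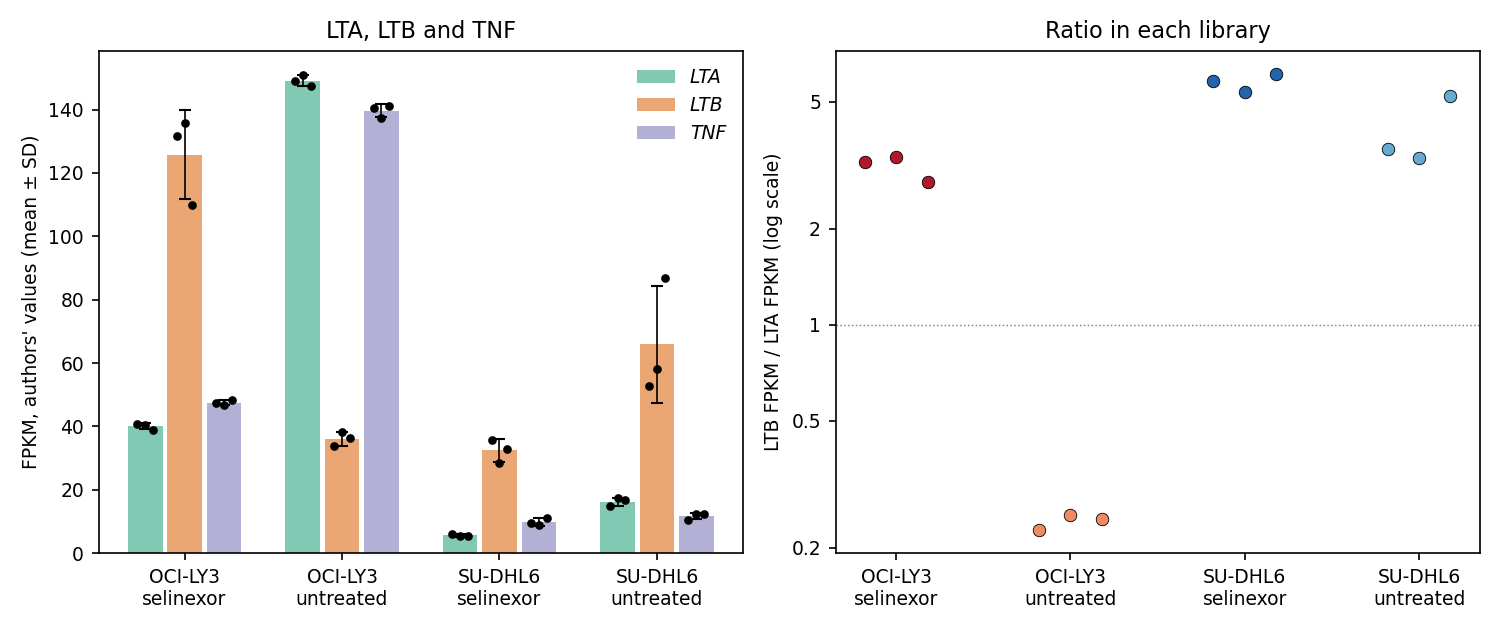
Left, the authors' FPKM of LTA, LTB and TNF in each group as mean and SD of 3 libraries, with points for libraries. Right, the ratio of LTB to LTA FPKM in each library on a log axis, with a dotted line at 1. The ratio lies below 1 only in untreated OCI-LY3 (0.227 to 0.253).

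IL10, which codes for an anti-inflammatory cytokine, was transcribed at a low level and only in OCI-LY3 libraries. It had 78, 85 and 107 counts in treated and 39, 46 and 26 in untreated cells, or 6.84 ± 1.08 against 2.62 ± 0.66 CPM (SD, n = 3 each). It rose 2.6-fold (log2 1.38 ± 0.27, edgeR adjusted p = 0.0021), and all treated libraries lay above all untreated ones. IL6 had 58, 53 and 61 counts in treated and 50, 49 and 43 in untreated OCI-LY3. Treated libraries again lay above untreated ones, but the log2 difference of 0.38 ± 0.23 did not pass the test (edgeR adjusted p = 0.224). IL6 exons overlap those of STEAP1B on the other strand, which had 95 to 139 counts in treated and 199 to 235 in untreated OCI-LY3, and of an antisense RNA with 9 to 13 and 18 to 21 counts. The strand setting of the counting is not given in the sources used here, so reads of these genes may be shared. No SU-DHL6 library had a read of IL10 or IL6.

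Ordered by FPKM, the transcript repertoire of treated OCI-LY3 ran LTB (126), CXCL13 (71.9), TNF (47.5), LTA (40.1), CCL22 (4.56), IL10 (2.39), IL6 (0.781), CCL3 (0.339), CCL17 (0.327) and CCL4 (0.0625). The ranges of neighbours did not overlap down to IL6, but CCL3, CCL17 and CCL4 could not be ordered. In untreated OCI-LY3 the order was LTA (149), TNF (140), CCL22 (40.7), LTB (36.1), CCL3 (1.37), IL10 (0.99), CCL17 (0.717), IL6 (0.651), CXCL13 (0.434) and CCL4 (0.0157). There the libraries of IL10 overlapped with those of CCL3 and CCL17, and those of CCL17 with IL6 and CXCL13. All orders and shares given here rest on the authors' lengths, which are in doubt. For LTB, CCL3 and CCL4 the implied length exceeds the gene span, but a length within the span can be wrong too. The place of LTB below CCL22 is therefore not settled, nor is that of IL10 above IL6. In untreated OCI-LY3, IL6 held 50, 49 and 43 counts, and IL10 held 39, 46 and 26. CXCL13 took 22.1, 23 and 28.5% of the summed FPKM of the 10 genes in treated OCI-LY3, against 0.158, 0.0666 and 0.128% in untreated OCI-LY3. Treated SU-DHL6 had LTB (32.4), TNF (9.88), LTA (5.62), CCL3 (1.22) and CCL4 (0.284), and untreated SU-DHL6 had LTB (65.9), LTA (16.3), TNF (11.7), CCL3 (6.08) and CCL4 (0.749). Neighbours in these orders were separate in every library, and the other 5 genes were at or near 0.

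Without drug, the lines differed in all 9 tested members, beside 67.3% of all genes. CXCL13, CCL22, LTA, TNF, IL10 and IL6 were higher in OCI-LY3 (33.6% of all genes were), and CCL3, CCL4 and LTB were lower (33.7%). LTA was 9.58-fold higher (log2 3.26 ± 0.11, adjusted p = 3.72e-12) and TNF 12.4-fold higher (3.64 ± 0.11, adjusted p = 1.85e-12, both edgeR). LTB was 1.75-fold lower (log2 -0.80 ± 0.18, edgeR adjusted p = 0.00119), with 110 to 126 CPM in OCI-LY3 and 159 to 279 CPM in SU-DHL6, and CCL3 4.22-fold lower (-2.08 ± 0.23, edgeR adjusted p = 1.68e-06). For CCL4, 2 counts in the untreated OCI-LY3 libraries together against 95 in SU-DHL6 give a level 44.9-fold lower, with a 95% exact interval for counting error of 12.1 to 376. CCL22 had 1729 to 1813 counts in OCI-LY3 and 0 to 6 in SU-DHL6. Where SU-DHL6 was at 0 in all libraries, the bound from 3 counts per library is at least 3.63-fold higher in OCI-LY3 for CXCL13, at least 13-fold for IL10 and at least 16.6-fold for IL6. The copies were at 0 in OCI-LY3 and so at least 71.3-fold (CCL3L1) and at least 27-fold (CCL4L2) lower there.

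Of 12 genes for the members' receptors, 7 were tested. CCR1, CCR4, LTBR and TNFRSF1A had 0 counts in all 12 libraries, among them the receptors for CCL17, CCL22 and the LTA-LTB complex. Whether the counting dropped these genes is not known, so the 0 counts do not show that the lines lack them. CXCR5, the CXCL13 receptor, was abundant at 534 ± 41.5 CPM in treated and 697 ± 13 CPM in untreated OCI-LY3 (SD, n = 3 each). It fell slightly, by 0.39 ± 0.11 on the log2 scale (edgeR adjusted p = 0.00954). In SU-DHL6 it was 131 ± 6.74 CPM in treated and 164 ± 24.1 CPM in untreated cells, with overlapping libraries. The fall by 0.33 ± 0.11 there (edgeR adjusted p = 0.0243) was lost in 6 of 21 settings and came to -0.06 with scaling by library totals.

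The TNF receptor TNFRSF1B, which binds TNF and soluble LTA, rose in both lines. It had 246, 249 and 218 CPM in treated and 161, 179 and 176 CPM in untreated OCI-LY3 (log2 0.47 ± 0.13, edgeR adjusted p = 0.01). In SU-DHL6 it stayed low, with 21, 21 and 35 counts in treated and 8, 13 and 5 in untreated libraries (log2 1.25 ± 0.28, edgeR adjusted p = 0.00229). TNFRSF14, another receptor for soluble LTA, rose in SU-DHL6 to 3.83 ± 0.94 CPM, against 2.22 ± 0.22 CPM untreated (log2 0.79 ± 0.20, edgeR adjusted p = 0.00652), and had 32.4 ± 5.7 CPM in treated and 25.7 ± 1.43 CPM in untreated OCI-LY3. IL10RA, the ligand-binding chain for IL-10, rose in OCI-LY3, at 1531, 1587 and 1525 CPM in treated and 367, 410 and 704 CPM in untreated libraries. Its log2 fold change was 1.65 ± 0.21 (edgeR adjusted p = 5e-05), and the third untreated library was the highest of its group. IL10RB, the shared second chain, had 20 ± 6.2 CPM in treated and 19.7 ± 1.17 CPM in untreated OCI-LY3 (SD, n = 3 each). SU-DHL6 had 39.7 ± 0.83 CPM with the drug and 39.1 ± 11.5 CPM without it, and IL10RB was called in neither line.

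The IL-6 receptor chains split. IL6R, which binds the cytokine, was at 67.3 ± 2.7 CPM in treated and 97.2 ± 3.59 CPM in untreated OCI-LY3, a fall by 0.53 ± 0.20 (edgeR adjusted p = 0.0495) that was lost in 12 of 21 settings. It had at most 5 counts in any SU-DHL6 library. IL6ST, the signalling chain gp130, rose in SU-DHL6 to 11.9 ± 1.53 CPM against 7.27 ± 0.62 CPM untreated (log2 0.71 ± 0.13, edgeR adjusted p = 0.000702). In OCI-LY3 it had 35.4 ± 1.99 CPM in treated and 34.6 ± 3.65 CPM in untreated cells. The 4 decoy and scavenger receptor genes listed (ACKR1, ACKR2, ACKR4 and CCRL2) were too low to test.

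The members' families and pathways were followed through further lists of genes, with the same edgeR test and the same threshold for every rise and fall named. Of 38 other chemokine genes, 6 were tested. In OCI-LY3, 2 rose and 3 fell. CCL5, a T-cell attractant, held 5, 2 and 0 counts in treated and 111, 66 and 105 in untreated libraries (log2 -5.17 ± 0.58, edgeR adjusted p = 6.62e-06). CX3CL1 fell by 2.69 ± 0.36, and the interferon-induced CXCL10, the most abundant of the 6 in that line, fell by 0.52 ± 0.10, with 145 against 209 CPM. CXCL16 rose by 1.21 ± 0.22, and CXCL9 by 1.02 ± 0.34, the CXCL9 call being lost in 10 of 21 settings. In SU-DHL6, CCL5 was the 1 called gene of the 6, at 4, 6 and 1 counts in treated and 31, 20 and 13 in untreated libraries (log2 -2.79 ± 0.59, edgeR adjusted p = 0.00161).

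Of 43 other interleukin and cytokine genes, 19 were tested. In OCI-LY3, 2 rose and 5 fell, and in SU-DHL6, 2 rose and 1 fell. IL27 held 1, 0 and 1 counts in treated and 69, 59 and 37 in untreated OCI-LY3, a level 77.1-fold lower, with a 95% exact interval for counting error of 21 to 642. IL12A fell by 2.21 ± 0.33 and TSLP by 2.03 ± 0.38 in that line. EBI3, whose product pairs with those of IL27 and IL12A and which was picked out after its values were seen, fell by 1.63 ± 0.17 in OCI-LY3, with 129, 124 and 124 CPM in treated against 393, 381 and 395 CPM in untreated libraries. It was the called fall in SU-DHL6 as well, at 0, 0 and 2 counts in treated and 10, 2 and 8 in untreated libraries, the highest treated library matching the lowest untreated one. IL16, a chemoattractant for CD4+ cells, rose by 0.84 ± 0.09 in OCI-LY3, at 720, 694 and 754 CPM in treated and 400, 399 and 410 CPM in untreated libraries. In SU-DHL6 the rises were IL7, by 0.94 ± 0.24, and IL24, by 0.79 ± 0.29, the second lost in 11 of 21 settings.

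Of 15 other ligands of the TNF superfamily, 8 were tested. In OCI-LY3, 4 rose and 1 fell with a median log2 fold change of 0.79, and in SU-DHL6 none rose and 3 fell with a median of -0.92. The median over all genes was 0 in OCI-LY3 and 0.003 in SU-DHL6. TNFSF8, the CD30 ligand, rose in OCI-LY3 and fell in SU-DHL6, as LTB did. It had 123, 112 and 152 counts in treated and 3, 2 and 0 in untreated OCI-LY3, and 88, 105 and 91 in treated against 223, 217 and 138 in untreated SU-DHL6. The log2 fold changes were 6.28 ± 0.39 (adjusted p = 2.97e-08) and -1.32 ± 0.23 (adjusted p = 0.000397, both edgeR). TNFSF15 rose by 1.15 ± 0.18 and TNFSF4, the OX40 ligand, by 1.65 ± 0.33 in OCI-LY3. CD70 fell in SU-DHL6 by 0.92 ± 0.12, and by 0.30 ± 0.11 in OCI-LY3, where the call was lost in 11 of 21 settings. TNFSF13, known as APRIL, fell in SU-DHL6 by 0.92 ± 0.25.

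Of 18 NF-kB feedback and target genes, 17 were tested. In OCI-LY3, 6 rose and 3 fell with a median of 0.06 (scaling by library totals moves the median of all genes there to -0.087), and in SU-DHL6, 1 rose and 11 fell with a median of -0.55 (0.266 for all genes under that scaling). NFKBIZ, which codes for an atypical IkB protein, fell in both lines, by 1.61 ± 0.15 in OCI-LY3 and 1.55 ± 0.15 in SU-DHL6. In OCI-LY3 NFKB1 also fell (by 1.10 ± 0.10) and TRAF1 (by 0.96 ± 0.13), while CFLAR, which holds back caspase-8, rose by 1.53 ± 0.18, BIRC3 by 0.87 ± 0.14 and TNFAIP3, the A20 inhibitor, by 0.68 ± 0.09. In SU-DHL6 the largest falls were BCL2A1, an anti-apoptotic BCL2 relative (2.27 ± 0.24), and RELB (1.78 ± 0.19), and REL was the rise, by 0.88 ± 0.15. Of 7 tested STAT3 feedback genes, 2 rose and 3 fell in OCI-LY3, and 3 rose and 1 fell in SU-DHL6. The kinase gene PIM2 rose by 0.61 ± 0.11 in OCI-LY3 and 0.82 ± 0.11 in SU-DHL6, and its relative PIM1 fell by 0.29 ± 0.09 in OCI-LY3 and 0.88 ± 0.09 in SU-DHL6, the OCI-LY3 call being lost in 3 of 21 settings. CISH fell by 2.30 ± 0.52 in OCI-LY3, and SOCS1 rose by 0.79 ± 0.20 in SU-DHL6, both genes for inhibitors of cytokine signalling. STAT3 rose in both lines, by 0.68 ± 0.10 in OCI-LY3 and 1.44 ± 0.10 in SU-DHL6. SOCS3, its feedback inhibitor, fell by 0.96 ± 0.18 in OCI-LY3 and had 0 counts in treated and 3, 0 and 0 in untreated SU-DHL6.

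All 9 listed factors that govern the decay of cytokine messages were tested. In OCI-LY3, 2 rose and 2 fell with a median of 0.15, and in SU-DHL6, 6 rose and 2 fell with a median of 0.43. ZFP36L2 rose by 1.03 ± 0.10 in OCI-LY3 and 1.36 ± 0.10 in SU-DHL6. ZC3H12A, the RNase Regnase-1 that cuts IL6 messages, rose by 0.99 ± 0.10 in OCI-LY3 and 1.33 ± 0.11 in SU-DHL6. Both lay above untreated cells in all treated libraries. RC3H1, which codes for the RNA-binding protein Roquin-1, rose by 1.37 ± 0.35 in SU-DHL6, a call lost when the lines were fitted alone. HNRNPD, the gene of AUF1, fell by 0.51 ± 0.12 in OCI-LY3, and ELAVL1, the gene of the stabilising factor HuR, by 0.36 ± 0.11 in SU-DHL6, where 4 of 21 settings lost the call. KHSRP fell in OCI-LY3 (by 0.56 ± 0.12), and in SU-DHL6 (by 0.32 ± 0.12) with the call lost in 13 of 21 settings. Of 4 genes for processing of secreted cytokines, DPP4, a protease that trims chemokines, fell in OCI-LY3 by 1.67 ± 0.24. In SU-DHL6, RHBDF2, a partner of the TNF sheddase, rose by 0.57 ± 0.13 and ADAM10 by 0.40 ± 0.14, the second lost in 6 of 21 settings.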

How the data were processed

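The 12 sequencing libraries were built from 1.3 µg of RNA with the SMARTER mRNA-Seq kit, per the labels' protocols. The authors deposited 1 table with a read count per gene and library, per the file headers. The authors also deposited FPKM values (counts per length and depth) in that table, per the file headers, and these were used for levels compared between genes, for their ratios and shares, and for 1 check of TNF. The aligner and counter were not given in the sources used here. Mouse builds (GRCm38, mm10) stand in the submitters' processing notes, but the table holds human identifiers, and the members' coordinates equal those of GENCODE on GRCh38.

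All 12 libraries entered 1 model in edgeR 4.0.16 (R 4.3.3): filterByExpr by group (minimum count 10), TMM factors of 0.8646 to 1.233, robust quasi-likelihood F tests, and Benjamini-Hochberg adjustment over 16474 genes with calls at 0.05. SE was taken as the size of the log2 change over the root of F. Where both groups averaged at most 3 counts per library, no fold is given. Intervals and bounds cover counting error only. Replicates differed by more than sampling noise (chi-square over degrees of freedom at least 11.6), so none was counted as a copy.

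The members and all gene lists were chosen with earlier results of these data known. Named genes were the members, XPO1, tested receptors and copies, and, per list and line, up to 3 called genes per direction with the largest change and at least 1 CPM; cell type lists are given as sums and counts. For likeness, the rule took the 3 nearest genes for CXCL13 and 1 for each other tested member. Alternatives were other scalings, DESeq2 1.42.0, limma-voom (limma 3.58.1), other filters, each line alone, a replicate block and leaving out each library. Summing the copies was added after seeing the data.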

Additional observations from a re-analysis of the deposited data

Results flagged for a closer look

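Of the members and the listed cytokines and receptors with a measurable change in both lines, 15 differed between the lines in their response (SU-DHL6 minus OCI-LY3, edgeR quasi-likelihood test of the difference, adjusted p under 0.05). Of all 16474 genes tested, 36.9% passed this test, 17% with a positive and 19.9% with a negative difference. The count of 15 is therefore a description and not in itself a result about these genes. No explanation was weighed. Among the members, LTB gave -3.21 ± 0.25 (log2, SE, adjusted p = 1.27e-06) and TNF 0.92 ± 0.15 (adjusted p = 0.000271). TNFSF8 gave the widest of the 15 differences, -7.60 ± 0.47 (adjusted p = 8.94e-08), with a rise in 3 of 3 treated OCI-LY3 libraries and a fall in 3 of 3 treated SU-DHL6 libraries. Untreated OCI-LY3 averaged 0.117 CPM of TNFSF8, under the level of 3 counts, so the size of its difference rests on few reads there. The other called ligands of that family were TNFSF10 at -3.51 ± 0.91, TNFSF15 at -2.42 ± 0.60, TNFSF13 at -1.35 ± 0.33, TNFSF4 at -1.30 ± 0.43, CD70 at -0.62 ± 0.16 and TNFSF9 at -0.43 ± 0.14. That makes 7 of the 8 tested, all negative, beside 19.9% of all genes. TNFSF9 itself was called in neither line (edgeR adjusted p = 0.0879 in OCI-LY3 and 0.109 in SU-DHL6). Scaling by library totals moves the median difference of all genes to 0.354, while the smallest of the 7 differences is -0.43. Whether all 7 stay called under that scaling is not given here. TNFSF15 had 1 to 6 counts in treated and 3 to 11 in untreated SU-DHL6, so its value rests on few reads there, and TNFSF10 likewise had 5 to 7 counts in treated and 0 to 2 in untreated OCI-LY3. CXCL16 gave -1.51 ± 0.41 and IL16 -1.07 ± 0.13. IL32 gave -2.32 ± 0.77 and IL23A -1.54 ± 0.58 (adjusted p = 0.0499), with at most 16 and 11 counts in any OCI-LY3 library. Of the receptors, IL10RA gave -1.39 ± 0.30 (adjusted p = 0.00297) and IL6ST 0.68 ± 0.18 (adjusted p = 0.00982).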

How the results depend on the processing

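Over the alternatives run, the count of members called stayed within 1.5 times of 7 in OCI-LY3 (CXCL13, whose change was known when the list was chosen, included), 5 in SU-DHL6, 2 for the difference and 9 between untreated lines, with 1 exception: scaling by library totals left 3 in SU-DHL6, where CCL4 and TNF were lost. That scaling moves the median log2 fold change of all genes to 0.266 in SU-DHL6, -0.087 in OCI-LY3 and 0.354 for the difference. Among called genes it gives 69.7% higher in SU-DHL6 (47.2% with TMM factors) and 40.1% higher in OCI-LY3 (50% with TMM factors). The LTA difference of -0.02 became 0.36 with library totals (adjusted p = 0.038) and 0.0023 without a filter, and ran from -0.12 to 0.055 when single libraries were left out. The cause was not tested. Replicate numbers did not pair the libraries: deviations of same-numbered treated and untreated libraries correlated at 0.0047 to 0.0132 in OCI-LY3 and at -0.12 to 0.0501 in SU-DHL6, and 5 of 12 libraries were closest to their own number. A fit with the replicate block called 7, 5, 2 and 9 members, as without it. Among other named genes it ended the calls of IL6R, CXCL9, CD70, PIM1 and COL1A1 in OCI-LY3 and of IL24, ADAM10 and KHSRP in SU-DHL6. Few reads limit CCL4, CCL17, IL10 and IL6, and CCL22 in SU-DHL6.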
